A study of Homo sapiens with 12 samples.

Results

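The C/EBP (CCAAT/enhancer-binding protein) genes of the deposited count table were CEBPA, CEBPB, CEBPD, CEBPG and CEBPZ, chosen by symbol, 5 of the 62069 genes in the table. Of these, 4 passed the filter on low counts and were tested among 15284 genes, and CEBPA was listed at 0 in all 12 libraries. RNA-seq was done on IMR90 ER:RAS cells, a line of human lung fibroblasts with an estrogen receptor-RAS fusion that 4-hydroxytamoxifen (4OHT) switches on, which drives oncogene-induced senescence (OIS). There were 4 groups of 3 libraries: non-induced cells, cells induced with 100 nM 4OHT, and induced cells with 1 of 2 shRNAs against XPO7, a nuclear transport receptor (induced + shXPO7_3 and induced + shXPO7_5). All cells were at passage 13, were kept for 7 days with new medium on day 4, and are labelled day 5 of induction. The labels name no shRNA for the non-induced and induced cells, while the study describes its RNA-seq cells as transduced with vectors. Nothing states whether the 3 libraries of a group were separate cultures, so the spread behind each p-value may be technical.

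C/EBP alpha, beta, delta and gamma are basic leucine zipper (bZIP) proteins that bind DNA as dimers with each other and with related factors. C/EBP alpha and delta are known from fat cell and myeloid differentiation, and C/EBP beta and delta respond to interleukin 6 and interleukin 1. In senescent fibroblasts C/EBP beta is known as an activator of secreted inflammatory factors. C/EBP gamma lacks an activation domain, dampens C/EBP beta when paired with it, and activates amino acid and redox genes when paired with ATF4. C/EBP zeta, encoded by CEBPZ, shares the name but not the zipper: it is a CCAAT-binding protein of the nucleolar Noc family that takes part in assembling the large ribosomal subunit.

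Total counts per library ran from 28534141 to 60397769. The targeted gene followed the labels: XPO7 (ENSG00000130227) was at 134.5 ± 7.04 CPM (counts divided by library size in megacounts, with library sizes scaled by TMM; SD, n = 3) in non-induced, 136.6 ± 8.81 in induced, 27.7 ± 1.14 in shXPO7_3 and 52.2 ± 1.62 in shXPO7_5 cells. All 10 fibroblast markers were read, with sums from 17300 to 28800 CPM, higher in the non-induced libraries (24800 to 28800) than in the induced ones without shRNA (17300 to 18800). Hepatocyte and adipocyte markers summed to at most 0.219 CPM, and leukocyte and myeloid markers to at most 1.72 CPM with CD3E at 0. Endothelial markers summed to at most 5.27 CPM with PECAM1 and CDH5 at 0. Epithelial markers, with KRT5, KRT14 and SFTPC at 0, summed to 31.2 to 37.7 CPM in non-induced and at most 3.11 CPM in the other libraries. The higher epithelial sum was nearly all KRT19, which ran from 1.09 to 36.5 CPM over the 12 libraries. EPCAM was at most 1.11 CPM and CDH1 at most 0.202 CPM. These sums moved with induction, and their part in the C/EBP values was not tested. In such bulk samples fewer cells of a type and less RNA per cell cannot be told apart. The libraries also differed in how their counts followed the GC content of transcripts. The rank correlation across genes, between a library's difference from the mean of all libraries and transcript GC content, ran from -0.498 to 0.696. It was clearly positive, at 0.268 to 0.696, in 4 libraries: replicate T of the non-induced cells, replicate T of shXPO7_3, and replicates T and B of shXPO7_5.

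The members lie at opposite ends of that scale. The transcripts of CEBPB held 66.2% G and C and those of CEBPD 70.0%, above 98.4% and 99.8% of the genes tested. Those of CEBPG held 41.9% and those of CEBPZ 39.4%, above only 19.6% and 8.45%. Comparisons are given on the counts as deposited. Where an adjustment of every library for GC content and transcript length (GC-adjusted) changes a call or a direction, or moves a value of a member by over 1.5 times, that value is given too.

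In GENCODE release 29 on GRCh38, CEBPB (ENSG00000172216) occupies chr20:50190734-50192689 on the plus strand. CEBPA (ENSG00000245848, chr19:33299934-33302564, minus strand) and CEBPG (ENSG00000153879, chr19:33373330-33382686, plus strand) are neighbours, 70766 bases apart. CEBPZ (ENSG00000115816, chr2:37201612-37231713, minus strand) shares 351 of its 3629 exon bases with CEBPZOS and 83 with NDUFAF7, both on the other strand. Since the study counted reads on GRCh37, matching to this annotation was by identifier, and no position was converted.

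The promoters of 4 members were given by RefSeq on GRCh38, with 2 start sites each for CEBPB and CEBPG. CEBPD was not in that table. Stretches of 30 bases around the motifs found upstream are shown for the members that were read in every library and for CEBPA, which was not. Capitals mark the motif, and the sequence is written along the gene's own strand.
CEBPB, TATAAA 29 bases before the start, chr20:50190789-50190818: acgggccgccctTATAAAtaaccgggctca
CEBPB, TGACG 57 bases before the start, chr20:50190761-50190790: gaggggccggcgTGACGcagcggttgctac
CEBPA, TATAAA 30 bases before the start, chr19:33302547-33302576: cggcctgccgggTATAAAagctgggccggc
CEBPG, ATTGG 85 bases before the start, chr19:33373612-33373641: agcctgcccacgATTGGtcgactgggctgc
CEBPG, ATTGG 24 bases before the start, chr19:33373673-33373702: gccggcgctcccATTGGccgggatggcggc
CEBPZ, TGACG 174 bases before the start, chr2:37231753-37231782: cttcgaggggacTGACGcttacctgcgcgc

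The CEBPB and CEBPG stretches lie inside the GENCODE span of their gene, that of CEBPA crosses the end of its gene's span, and that of CEBPZ lies outside it. Among 35116 promoters, the 250 bases before the start held TATAAA on either strand in 10.7%, CCAAT in 32% and TGACG in 21.2%. The letters ATTGG are CCAAT read on the other strand, and TGACG is the start of the cyclic AMP response element. CEBPA and CEBPB shared the TATAAA at nearly the same distance from the start. The GC box GGGCGG, found in 42.6% of promoters, was present in CEBPA, in 1 of the 2 CEBPG windows and in both CEBPB windows. In CEBPB, 1 window also held CCAAT 245 bases before the start. The full cyclic AMP response element (TGACGTCA), the AP-1 letters TGANTCA and the E-box CACGTG, searched on both strands, were in none of these 6 windows, and neither were the C/EBP and NF-kB motifs searched.

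CEBPA had 0 counts in all 12 libraries, which together held 452045963 counts. A count of 0 allows up to 0.00664 CPM over all 12 libraries and up to 0.106 CPM in the smallest, for counting error only. Its exons are overlapped on the other strand by a pair of antisense genes, which were at 0 too. BOP1, a nucleolar gene used by growing cells, was also listed at 0 in all 12 libraries under its current identifier, so a 0 in this table was not read as absence of a transcript. The bZIP relative CEBPE, a myeloid factor, had 2 counts in all.

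Per kilobase of exon, CEBPB was the highest of the 4 tested members in every group. In non-induced cells it was at 21.8 ± 2.19 CPM per kb (SD, n = 3), above CEBPZ at 11.95 ± 4.28, CEBPG at 6.18 ± 0.740 and CEBPD at 5.15 ± 0.330. The libraries of CEBPG and CEBPD overlapped in these cells, and the other neighbours in the order did not. In induced cells the order was the same, with CEBPB at 33.3 ± 3.07, CEBPZ at 17.8 ± 2.05, CEBPG at 8.84 ± 0.735 and CEBPD at 3.15 ± 0.190 CPM per kb, and no neighbours overlapped. The same order held with shXPO7_3 (36.6, 16.6, 7.31 and 3.25 CPM per kb) and with shXPO7_5 (41.5, 11.2, 6.80 and 4.10 CPM per kb), again without overlap.

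To see how RAS changed these genes, induced cells were compared with non-induced cells. CEBPB rose 1.53-fold and CEBPG 1.43-fold, and CEBPD fell 1.64-fold. CEBPZ was 1.49-fold higher on average, and this difference did not pass the test. With edgeR's quasi-likelihood test and Benjamini-Hochberg adjustment, 50.9% of all genes tested were called at an adjusted p under 0.05 (24.8% higher and 26.1% lower), against 3 of the 4 members, so being called was common in this comparison.

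CEBPB was at 45.0, 45.3 and 37.7 CPM in non-induced replicates T, A and C and at 70.7, 65.9 and 58.8 CPM in induced replicates T, A and B. Every induced library was above every non-induced one. The log2 fold change was 0.61 (SE 0.15, 95% confidence interval 0.29 to 0.93, adjusted p = 0.00432).

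CEBPD was the one member that fell. It (ENSG00000221869) lies at chr8:47736909-47739086 of GRCh38 on the minus strand, 603 bases from SPIDR. It was read at 10.9, 12.05 and 10.7 CPM in the non-induced libraries, in the order T, A and C, and at 7.05, 7.16 and 6.39 CPM in the induced ones, in the order T, A and B. The groups did not overlap. The log2 fold change was -0.71 (SE 0.12, interval -0.97 to -0.45, edgeR adjusted p = 0.000312).

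CEBPG was at 23.5, 28.9 and 29.4 CPM before and at 37.8, 42.7 and 36.5 CPM after induction, again with no overlap. Its log2 fold change was 0.52 (SE 0.12, interval 0.25 to 0.78, edgeR adjusted p = 0.00354). Across all genes, the libraries of the 2 groups did not overlap for 31.8% of genes in the higher and 31.4% in the lower direction. For each of these 3 members the exact two-sided permutation test gave p = 0.1, the smallest that 3 libraries against 3 allow.

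CEBPZ varied most among libraries of 1 group. It was at 27.0, 45.3 and 57.8 CPM in the non-induced libraries and at 66.2, 71.3 and 56.6 CPM in the induced ones. The lowest induced library lay just under the highest non-induced one. The log2 fold change was 0.58 (SE 0.32, interval -0.13 to 1.28, edgeR adjusted p = 0.157). The GC-adjusted value was 0.48 (interval 0.11 to 0.85) and was called, at an edgeR adjusted p of 0.0267, in a range of 0.000775 to 0.201 over 9 alternative settings. The lowest came from the GC-adjusted fit with replicate letters as blocks. Non-induced replicate C, the only library with that letter, had no weight in it. On the counts as deposited it was called with none of the 6 libraries left out in turn, and ran from 0.33 without non-induced replicate T (adjusted p = 0.422) to 0.84 without non-induced replicate C (adjusted p = 0.0682). CEBPZOS, which overlaps it on the other strand, rose by 0.30 on the log2 scale (adjusted p = 0.0433), and NDUFAF7 differed by 0.12 (adjusted p = 0.271).

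**Figure D1:**
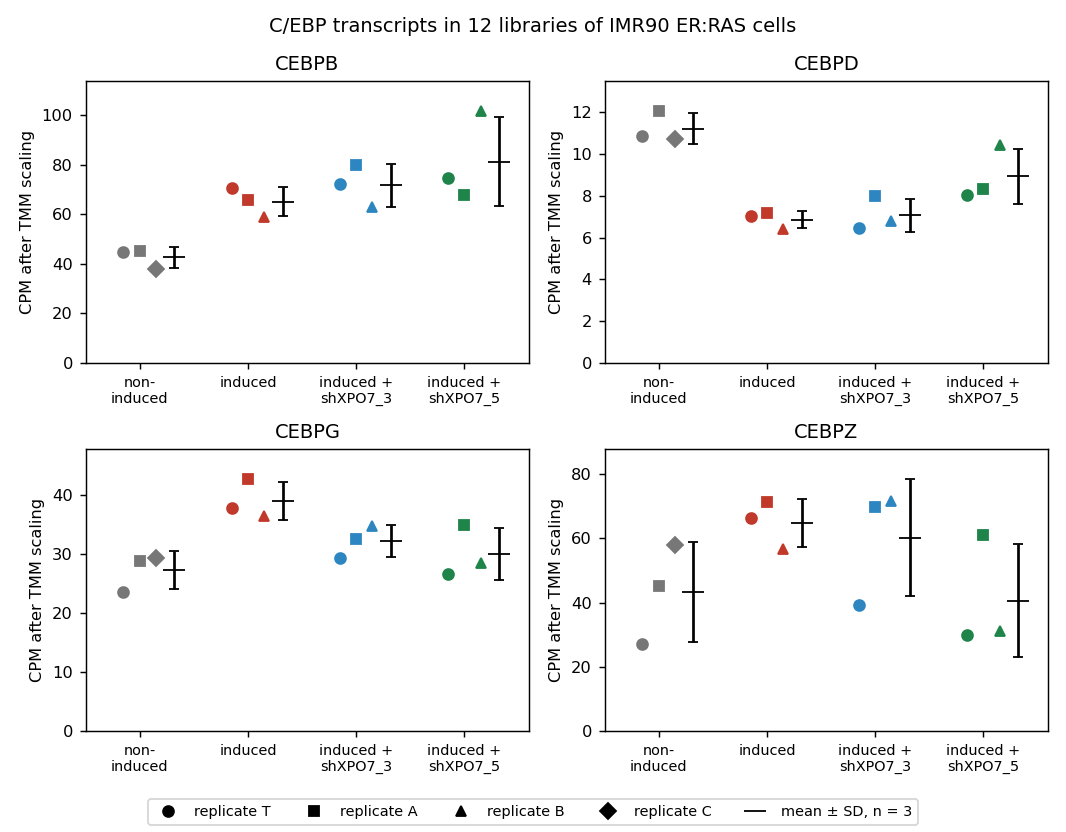
Each panel plots 1 gene's level in CPM after TMM scaling (vertical axis, from 0) in the 12 libraries by group, with symbols for replicates and a bar for the mean ± SD of 3 libraries. CEBPB and CEBPG sit higher and CEBPD lower in induced than in non-induced cells, and CEBPZ spans 27.0 to 57.8 CPM within the non-induced group alone.

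Knockdown of XPO7 in induced cells gave smaller log2 differences than induction for CEBPB, CEBPD and CEBPG. For CEBPZ the difference was smaller with shXPO7_3 (-0.10) and larger in size with shXPO7_5 (-0.67, against 0.58 on induction). No member was called by edgeR for either shRNA on the counts as deposited. At an unadjusted p under 0.05, the 4 members gave 1 difference with shXPO7_3 and 2 with shXPO7_5, against 6.41% and 21.6% of all genes. DESeq2 called 0 members in both, and 0.612% and 3.63% of the genes it gave an adjusted p. Few genes were called by edgeR at all: 0.124% of those tested with shXPO7_3 and 0.589% with shXPO7_5, or 2.68% and 3.55% when GC-adjusted. Both comparisons share the 3 induced libraries.

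CEBPB was at 72.0, 79.9 and 62.9 CPM in replicates T, A and B of shXPO7_3 and at 74.4, 67.6 and 101.5 CPM in those of shXPO7_5. Replicates T and A of shXPO7_3 and T and B of shXPO7_5 lay above the induced range of 58.8 to 70.7 CPM, and the other 2 lay within it. The log2 difference from induced cells was 0.14 (interval -0.18 to 0.46, edgeR adjusted p = 0.999) with shXPO7_3 and 0.32 (interval -0.00024 to 0.64, adjusted p = 0.231) with shXPO7_5. GC-adjusted, the second was 0.035 (interval -0.18 to 0.24).

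CEBPD was at 6.45, 7.97 and 6.81 CPM with shXPO7_3, around the induced values. With shXPO7_5 it was at 8.02, 8.34 and 10.5 CPM, above all 3 induced libraries. The log2 differences from induced cells were 0.043 (interval -0.22 to 0.30, edgeR adjusted p = 0.999) and 0.38 (interval 0.12 to 0.65, adjusted p = 0.148). For 14.2% of all genes the shXPO7_5 libraries were higher than the induced ones without overlap. The GC-adjusted differences were 0.021 (interval -0.20 to 0.24) with shXPO7_3 and 0.081 (interval -0.14 to 0.30) with shXPO7_5.

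CEBPG was lower than in induced cells with both shRNAs, without overlap. It was at 29.4, 32.6 and 34.8 CPM with shXPO7_3 and at 26.6, 34.9 and 28.4 CPM with shXPO7_5. The log2 differences were -0.27 (interval -0.54 to -0.0094, edgeR adjusted p = 0.746) and -0.38 (interval -0.64 to -0.11, adjusted p = 0.155). Among all genes, 7.15% were lower without overlap with shXPO7_3 and 12.6% with shXPO7_5. The GC-adjusted value for shXPO7_3 stayed at -0.26 (interval -0.39 to -0.13) and was called, at an edgeR adjusted p of 0.0422 in a range of 0.0407 to 1 over 9 settings. The value for shXPO7_5 moved to -0.16 (adjusted p = 0.167).

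CEBPZ was at 39.1, 69.8 and 71.6 CPM with shXPO7_3 and at 29.8, 60.9 and 31.1 CPM with shXPO7_5. With shXPO7_3, replicate A lay inside the induced range of 56.6 to 71.3 CPM, B just above it and T far under it. With shXPO7_5, replicate A lay inside that range and T and B far under it. The log2 differences from induced cells were -0.10 (interval -0.80 to 0.59, edgeR adjusted p = 0.999) and -0.67 (interval -1.37 to 0.034, adjusted p = 0.242). GC-adjusted, the second was -0.40 (interval -0.78 to -0.026, adjusted p = 0.219).

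The shXPO7_5 values rested in part on replicate A, whose rank correlation with GC content was -0.259, against 0.46 and 0.696 in T and B. Without it, all 4 members were called against induced cells, as were 3634 genes in place of 90. That fit held only T and B of shXPO7_5 and was not GC-adjusted, so the part of GC content in these calls was not tested. The log2 differences were then 0.44 for CEBPB, 0.44 for CEBPD, -0.50 for CEBPG and -1.08 for CEBPZ, with edgeR adjusted p of 0.0481, 0.0415, 0.0319 and 0.0384. Leaving out each of the 6 libraries in turn gave adjusted p up to 0.676, 0.508, 0.505 and 0.645 for these genes.

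**Figure D2:**
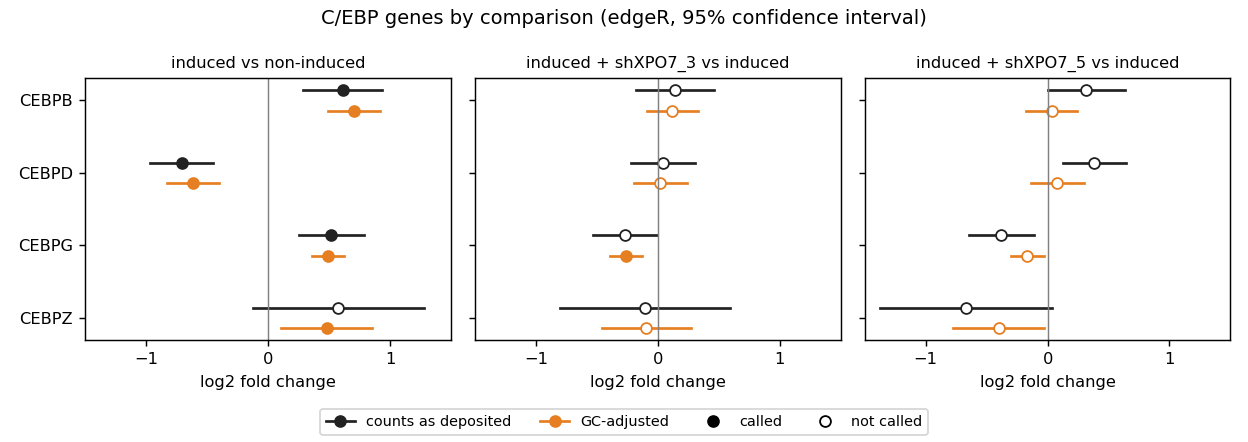
Each panel plots 1 comparison, with the log2 fold change of each tested member on the horizontal axis, lines for the 95% confidence interval, black for the counts as deposited and orange for GC-adjusted values, and filled points for calls at an adjusted p under 0.05. CEBPB, CEBPD and CEBPG are called in both forms in induced against non-induced cells and CEBPZ only when GC-adjusted, and only CEBPG with shXPO7_3, at a GC-adjusted -0.26, is called in a knockdown panel.

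Between the shRNAs, 0 of the 4 members were called by edgeR (0.0131% of all genes were), 0 by DESeq2 (0.177% of all genes were), and 1 differed at an unadjusted p under 0.05, as did 11.9% of all genes. That was CEBPD, 0.34 higher on the log2 scale with shXPO7_5 than with shXPO7_3 (interval 0.082 to 0.60, edgeR adjusted p = 0.388) and without overlap, as for 5.54% of genes in that direction. The GC-adjusted difference was 0.060 (interval -0.15 to 0.27). The others differed by 0.18 for CEBPB (interval -0.14 to 0.50), -0.11 for CEBPG (interval -0.37 to 0.16) and -0.57 for CEBPZ (interval -1.27 to 0.14). The first and second of these changed sign when GC-adjusted, to -0.082 and 0.097, and that of CEBPZ was then -0.31.

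Compared with non-induced cells, both knockdown groups had higher CEBPB and lower CEBPD. CEBPB was 0.75 higher on the log2 scale with shXPO7_3 (edgeR adjusted p = 0.00111) and 0.93 higher with shXPO7_5 (adjusted p = 0.000223). CEBPD had log2 fold changes of -0.67 (edgeR adjusted p = 0.000479) and -0.33 (adjusted p = 0.0342), the second -0.54 when GC-adjusted (adjusted p = 0.000305). CEBPG differed by 0.24 (adjusted p = 0.114) and 0.14 (adjusted p = 0.368), and by a GC-adjusted 0.23 and 0.32, both called. CEBPZ differed by 0.47 (adjusted p = 0.242) and -0.095 (adjusted p = 0.824), and the second turned to 0.077 when GC-adjusted (adjusted p = 0.717). Of all genes, 50.6% and 52.3% were called in these comparisons, and 64.7% in each when GC-adjusted. Both share the 3 non-induced libraries.

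For CEBPZ and CEBPG, the low libraries among the induced ones were those whose counts rose with GC content. These 3 libraries, replicate T of shXPO7_3 (rank correlation 0.363) and replicates T and B of shXPO7_5 (0.46 and 0.696), held the lowest CEBPZ levels of the 9 induced libraries, 39.1, 29.8 and 31.1 CPM. The same 3 libraries held the lowest CEBPG levels of the 9, 29.4, 26.6 and 28.4 CPM. At the GC-rich end, replicate B of shXPO7_5 held the highest CEBPB level, 101.5 CPM, and the highest CEBPD level of the induced libraries, 10.5 CPM. Within shXPO7_3 the order was otherwise: replicate A (-0.498) held the highest CEBPB and CEBPD levels, 79.9 and 7.97 CPM, and T the lowest CEBPD level, 6.45 CPM. Among non-induced libraries, replicate T (0.268) held the lowest CEBPZ level. Of 16 pairs of a member and a group, the SD was lower in 13 when GC-adjusted and higher in 3. The 3 were CEBPB and CEBPD with shXPO7_3 (8.52 to 11.9 and 0.795 to 1.19 CPM) and CEBPB in induced cells (6.002 to 6.45 CPM). The SD of CEBPB with shXPO7_5 went from 17.9 to 4.35 CPM, that of CEBPG in non-induced cells from 3.27 to 0.941 CPM, and that of CEBPZ in non-induced cells from 15.5 to 8.52 CPM. GC-adjusted CEBPZ means were 42.3 ± 8.52, 59.3 ± 4.45, 55.3 ± 9.25 and 44.6 ± 10.5 CPM in the order non-induced, induced, shXPO7_3 and shXPO7_5.

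The genes whose levels were most like those of each member over the 12 libraries were found by the root mean square difference of log2 CPM after centring each gene on its own mean, among 10685 other genes. For CEBPB they were RAB5IF (0.0779), IER5L (0.116) and ZNF771 (0.119), against a median of 0.423 over all genes compared. In that order, their transcripts held 51.1%, 65% and 59.9% G and C. For CEBPD they were SLC22A18 (0.0965), CCDC102A (0.119) and PPDPF (0.12), all with transcripts of at least 64.9% G and C. For CEBPG they were RPS6KC1 (0.0757), IFNGR1 (0.0774) and XPOT (0.0813), with transcripts of 42.4%, 40% and 40.9% G and C. XPOT is also on the list of ATF4 and C/EBP gamma targets below. CEBPZ had the closest matches, RECQL (0.0503), ZNF146 (0.0534) and RPAP3 (0.0657), with transcripts of 36.3% to 40.9% G and C. These genes were picked as the most alike, so a member not among them had to be less alike. The medians over all genes compared were 0.387 for CEBPD, 0.311 for CEBPG and 0.575 for CEBPZ. CEBPG and CEBPZ differed by 0.326, above the median of CEBPG and under that of CEBPZ. CEBPB and CEBPG differed by 0.399, above the median of CEBPG and under that of CEBPB. The other pairs of members, from 0.49 (CEBPD and CEBPG) to 0.699 (CEBPD and CEBPZ), lay above the medians of both. All of these values share the libraries and their depth and GC trends.

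Dimer partners and inhibitors of the C/EBP proteins changed in both directions on induction. Of 20 tested bZIP relatives, partners and inhibitors, 7 rose and 6 fell, with a median log2 fold change of -0.0042 against -0.0068 over all genes. GC-adjusted, 10 rose and 7 fell, with a median of 0.090. TRIB1, a pseudokinase that brings C/EBP alpha to the COP1 ubiquitin ligase for degradation, rose from 31.3 ± 2.28 to 172.2 ± 2.45 CPM (SD, n = 3; log2 2.46 ± 0.080 SE, edgeR adjusted p = 2.06e-10). The AP-1 members FOS and JUNB rose by 2.05 and 1.78 on the log2 scale. DBP, a bZIP factor of the circadian clock, fell from 2.68 ± 0.253 to 0.559 ± 0.088 CPM, a log2 change of -2.28 (edgeR adjusted p = 6.76e-07). ATF4 and DDIT3 are named here for their role, after their values were seen. ATF4, a partner of C/EBP gamma, was at 135.9 ± 10.3 and 135.5 ± 1.34 CPM (adjusted p = 0.966), and DDIT3, which encodes the inhibitory partner CHOP, rose by 0.33 (adjusted p = 0.00243).

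Among 24 tested inputs to C/EBP beta and delta, 10 rose and 3 fell, with a median log2 fold change of 0.17. These are cytokines, receptors, kinases, transcription factors and other regulators. GC-adjusted, 15 rose and 8 fell. The largest changes were in the ligands. IL1A and IL1B had as few as 3 and 5 counts in a non-induced library and passed the filter through induced libraries. Their calls upward were thus nearly fixed by being tested. IL1B rose from 0.257 ± 0.120 to 136.9 ± 0.927 CPM (log2 8.99 ± 0.16 SE, edgeR adjusted p = 4.42e-12), and IL1A from 0.202 ± 0.112 to 30.7 ± 1.48 CPM. IL6 rose from 2.59 ± 0.282 to 8.79 ± 0.542 CPM and LIF, a cytokine of the same family, from 127.1 ± 9.09 to 388.6 ± 3.71 CPM.

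All 19 tested inflammatory and acute-phase targets were called: 17 rose and 2 fell, with a median log2 fold change of 4.02. CXCL2, CXCL3, CXCL6, CCL20 and CSF3 had at most 9 counts in any non-induced library and passed the filter through induced libraries. So did IL1B, with 5 to 16 counts in the non-induced libraries. For such genes a call upward was nearly fixed by being tested, so the count of calls and the median rest in part on the filter. The neutrophil chemokine CXCL8 rose from 2.25 ± 0.427 to 457.0 ± 33.6 CPM (log2 7.65 ± 0.19 SE, edgeR adjusted p = 3.33e-11). CSF3, the granulocyte growth factor, had no count in the 3 non-induced libraries and was at 3.82 ± 0.317 CPM in induced cells, at least 138-fold higher against a floor of 3 counts over the non-induced group. With CSF3 at that bound, the median of the list was still 4.02. CCL20 had 1 count in the non-induced group and was at 2.96 ± 0.332 CPM in induced cells. The 2 that fell, given here after their values were seen, were PTX3 (log2 fold change -0.67) and SOD2 (-0.23). IL6 and IL1B stand on both this list and that of inputs. The 6 members that were not tested, among them the serum amyloid genes SAA1 and SAA2 and the haptoglobin gene HP, had at most 4 counts in any library.

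Adipocyte targets of C/EBP alpha, beta and delta mostly lay under the filter on low counts or fell. Of 15 listed, 7 were tested, of which 4 fell and 1 rose, with a median log2 fold change of -0.37. GC-adjusted, 4 fell and 2 rose. PPARG, the master regulator of fat cell formation, fell from 50.6 ± 3.05 to 11.9 ± 0.0435 CPM (log2 -2.09 ± 0.082 SE, edgeR adjusted p = 8.68e-10). The lipid droplet coat gene PLIN2 and the fatty acid carrier FABP4 fell by 0.59 and 0.55 on the log2 scale, and G0S2, an inhibitor of fat breakdown, rose by 1.86. ADIPOQ, LPL, PLIN1 and LEP were among the 8 genes under the filter.

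Most targets of ATF4 and C/EBP gamma rose. Of 18 tested, 13 rose and the other 5 were not called by edgeR, with a median log2 fold change of 0.45. GC-adjusted, 17 rose and 1 was not called. TRIB3, a pseudokinase that restrains ATF4, rose by 1.24 on the log2 scale, from 24.5 ± 2.80 to 57.8 ± 1.29 CPM. SLC7A11, the cystine transporter, rose by 1.181 on that scale (edgeR adjusted p = 0.00173), CTH, which makes cysteine, by 0.91, and the lipoprotein receptor gene VLDLR by 0.73.

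Of 22 tested genes of nucleolar ribosome assembly, the process in which CEBPZ takes part, 13 rose and 3 fell, with a median log2 fold change of 0.31. GC-adjusted, 14 rose and 4 fell. RRP12 rose by 0.96, MAK16 by 0.87, the 60S assembly factor WDR12 by 0.79 and the RNA polymerase I subunit gene POLR1B by 0.75 on the log2 scale, with edgeR adjusted p of at most 0.000632. Of the Noc relatives of CEBPZ, named here after their values were seen, NOC2L rose by 0.44 (adjusted p = 0.00311), and NOC3L and NOC4L differed by 0.12 (adjusted p = 0.68) and -0.086 (adjusted p = 0.636). List counts on the counts as deposited stand beside the 24.8% of all genes that rose and the 26.1% that fell, and GC-adjusted counts beside 33.1% and 31.5%.

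**Figure D3:**
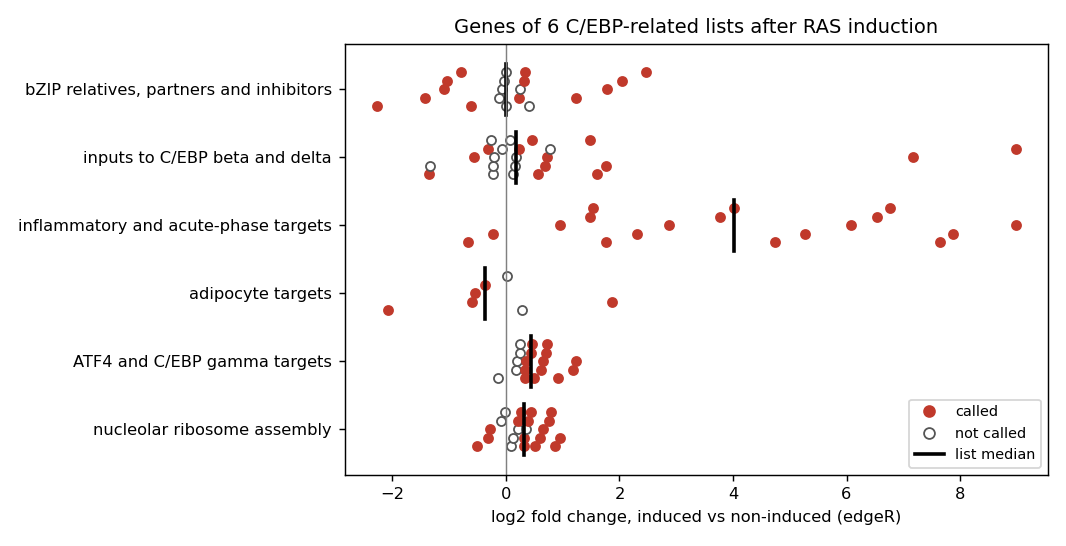
Each point is 1 tested gene of 6 lists, placed by its log2 fold change in induced against non-induced cells (horizontal axis), filled where called at an adjusted p under 0.05, with a bar at the list's median. CSF3, which had no count in non-induced cells, is not drawn. Inflammatory targets spread to the right around a median of 4.02, and the other medians lie between -0.37 and 0.45.

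Knockdown of XPO7 moved few of these genes past the test. The 6 lists held 105 tested genes, counted once each. Of these, edgeR called 0 with shXPO7_3 and 2 with shXPO7_5 against induced cells, beside 0.124% and 0.589% of all genes. At an unadjusted p under 0.05 there were 16 and 35, beside 6.41% and 21.6% of all genes, and DESeq2 called 1 and 6, beside 0.612% and 3.63%. GC-adjusted, 3 were called higher and 6 lower with shXPO7_3, and 3 higher and 4 lower with shXPO7_5, beside 2.68% and 3.55% of all genes. Except for the 0 by edgeR, the shares of the 105 genes were above those of all genes. The lists were chosen with earlier results of these data known, so this difference was not tested. Of the 18 ATF4 and C/EBP gamma targets, 4 were lower with shXPO7_3 when GC-adjusted, and 1 was higher and 1 lower with shXPO7_5. PTGS2, the inducible cyclooxygenase and a C/EBP beta target, was at 1.11 ± 0.0435 CPM in non-induced, 42.9 ± 4.45 in induced, 46.4 ± 3.67 in shXPO7_3 and 24.1 ± 3.84 in shXPO7_5 cells. With shXPO7_5 it was lower than in induced cells (log2 difference -0.83 ± 0.12 SE, edgeR adjusted p = 0.0132) and than with shXPO7_3 (log2 difference -0.95, adjusted p = 0.0246). The GC-adjusted differences were -0.51 (adjusted p = 0.00305) and -0.66 (adjusted p = 0.00269). CHAC1, which breaks down glutathione and is a target of ATF4, was at 48.4 ± 2.44 CPM in induced and 70.7 ± 10.4 CPM in shXPO7_5 cells, 0.55 higher on the log2 scale (adjusted p = 0.0451), or 0.28 when GC-adjusted (adjusted p = 0.00967). It was at 54.0 ± 3.83 CPM with shXPO7_3 (adjusted p = 0.999). Of the 19 inflammatory targets, 10 had an unadjusted p under 0.05 with shXPO7_5, all of them lower than in induced cells, beside 21.6% of all genes in either direction. GC-adjusted, 2 were called, both lower. On the counts as deposited the list's median log2 difference was -0.32 against 0.0058 over all genes. GC-adjusted, it was -0.24 against -0.028. With shXPO7_3 the median on the counts as deposited was 0.017. Other lists also moved 1 way at an unadjusted p under 0.05. With shXPO7_5, 9 of 20 bZIP relatives, partners and inhibitors were higher and 0 lower, and 1 was called, higher, when GC-adjusted. With shXPO7_3, 7 of 18 ATF4 and C/EBP gamma targets were lower and 0 higher, beside 6.41% of all genes.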

How the data were processed

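A stranded mRNA kit was used to prepare 12 libraries. The values are counts of reads per Ensembl gene as the authors deposited them, without normalization. The submitters' processing notes give hg19 and GRCh37 as builds and list featureCounts 1.18.0, TopHat2 2.0.11 and CASAVA 1.8.4. Which annotation and strand setting were used, and how reads on overlapping genes or with several matches were treated, is not given in the sources read, so reads of genes that overlap on opposite strands may be shared between them.

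The tests used edgeR 4.0.16 (with limma 3.58.1, in R 4.3.3). After filterByExpr 15284 of 62069 genes remained. TMM gave the library scaling, and 1 quasi-likelihood fit without covariates covered the 4 groups. A gene was called when its p, adjusted over all genes tested by the Benjamini-Hochberg method, was under 0.05. The exact permutation test was two-sided. The 92 spike-in rows, all at 0, were left out. No library was a repeat of another of its own group (chi-square per gene of 4.27 or more). Libraries of different groups were not compared in this way. Total counts ran from 28534141 to 60397769, so that 1 CPM stood for 28.2 to 59.3 counts.

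GC-adjusted values come from a fit whose offset is each library's spline trend (5 degrees of freedom) on the GC content and length of GENCODE 29 transcripts, known for 97.3% of genes tested. Groups came from the sample labels. Named genes were the members, XPO7, overlapping genes, up to 4 called members of each list with the largest change, list members called in a knockdown comparison, and the 3 most alike genes whose mean log2 CPM was 2 or more. The members and lists were chosen with earlier results of these data known. Alternatives were RLE and upper-quartile factors, other filters, only the 2 groups compared, the replicate block, DESeq2 1.42.0, a threshold of 0.01 and each library left out. The procedure was tested on simulated data. These were drawn without a GC trend among libraries, so that test does not cover the GC trends seen here.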

Additional observations from a re-analysis of the deposited data

How the results depend on the processing

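Of the calls in induced against non-induced cells, those of CEBPB, CEBPD and CEBPG kept their direction and stayed under the threshold in 9 settings and with each of 6 libraries left out. CEBPZ was called when GC-adjusted (0.48), without the filter (0.58), with the replicate block (0.93) and with both block and GC adjustment (0.64), and ran from 0.33 to 0.84 with 1 library left out. Letter C occurs only once, so non-induced replicate C had no weight in the block fits, which rest on non-induced T and A. Left out without a block, that library gave 0.84, which was not called. In the knockdown comparisons CEBPG with shXPO7_3 was called when GC-adjusted (-0.26) and with block and adjustment (-0.26), and CEBPZ with shXPO7_5 with block and adjustment (-0.43). Between the shRNAs, CEBPB and CEBPG changed sign when GC-adjusted (-0.082 and 0.097) and with block and adjustment (-0.072 and 0.096). Leaving out 1 library gave, with shXPO7_5 against induced, 0.13 to 0.44 for CEBPB, 0.26 to 0.46 for CEBPD, -0.50 to -0.30 for CEBPG and -1.08 to -0.49 for CEBPZ, all 4 called only without shXPO7_5 replicate A. It gave -0.047 to 0.098 for CEBPD (negative without shXPO7_3 replicate A, or, at -0.011, without induced replicate B) and -0.25 to 0.12 for CEBPZ (positive without shXPO7_3 replicate T) with shXPO7_3 against induced, and -0.0050 to 0.30 for CEBPB between the shRNAs (negative without shXPO7_5 replicate B).

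The number of genes called with shXPO7_3 against induced, 19, became 1 at a threshold of 0.01, 88 by DESeq2, 409 when GC-adjusted, 30 without the filter, 2 in a fit of only the 2 groups, 8 with upper-quartile factors and 477 with block and adjustment, and was 1 whichever library was left out. With shXPO7_5 it was 90 and became 2, 426, 542, 217 and 10 in the first 5 of these settings, 149 with the block, 994 with block and adjustment, and 2 to 3634 with 1 library left out. Between the shRNAs it was 2 and became 1, 27, 32, 20 and 0 in those 5 settings, 55 with block and adjustment, and 1 to 4 with 1 library left out. The cause of these shifts was not tested. In induced against non-induced cells the number stayed between 5861 and 9876. The replicate letters were not taken as pairs, since nothing states what they mean. Of 15 same-letter pairs of libraries, 8 had deviations from the group means correlated above 0.1 (range -0.234 to 0.589). The 39 pairs with different letters ran from -0.62 to 0.512. The best match among the 3 libraries of another group carried the same letter in 13 of 30 cases. Whether the letters mark pairs cannot be told from these values. For CEBPA a count of 0 allows up to 0.00664 CPM if its reads were counted at all, which was not tested.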
